A study of Sus scrofa with 88 samples.

Results

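The genes RPN2, B3GALNT1, ACBD3, SCAMP1 and PIK3C3, which act in the endoplasmic reticulum, the Golgi apparatus and the endosomes, were examined in the loin muscle of F2 pigs. They were chosen by function from the spots of the array with a gene symbol, and each had 1 spot, so 5 of the 178 named spots and 5 of all 20736 spots are described. The choice was not blind to the data. RPN2 and SCAMP1 had been among the named genes of smallest p for loin muscle area in earlier results of these arrays, and PIK3C3 among those for backfat depth, so their high against low values are given as a description with no test. The 88 arrays held RNA of 176 pigs from 44 litters of a Duroc x Pietrain cross, and every array set a pig that was high for a trait against a littermate of the same sex that was low for it. Loin muscle area (LMA) was the trait in 24 male and 24 female pairs of 24 litters, and backfat depth at the 10th rib (BF) in 20 male and 20 female pairs of the other 20 litters. All pigs were animals of 1 cross, and a high or a low pig was the extreme of its own litter and sex.

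A protein that enters the endoplasmic reticulum receives a preformed glycan from the oligosaccharyltransferase complex, and the glycans of proteins and lipids are extended in the Golgi. Vesicles then carry the products to the cell surface and endosomes bring membrane back, with phosphoinositide lipids marking the compartments. In skeletal muscle this traffic carries the glucose transporter and the receptors of the fiber membrane, and phosphoinositides also mark the membranes taken up by autophagy. RPN2 (ribophorin II) is a subunit of the oligosaccharyltransferase. B3GALNT1 is a Golgi enzyme that adds N-acetylgalactosamine to a glycolipid to make globoside. ACBD3 is a Golgi protein that binds acyl-CoA and recruits a phosphatidylinositol kinase. SCAMP1 is a carrier membrane protein of the recycling and secretory routes. PIK3C3 is the class III phosphatidylinositol 3-kinase, known from yeast as Vps34, of endosomes and autophagy.

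A value is the log2 ratio of 1 littermate over the other, so 1 stands for a 2-fold difference between them. The sources used here do not say which pig is the numerator. The ratios as deposited ran in 1 fixed order of the high and the low pig (the SD over spots of the mean ratio was 0.024 in this order, and 0.112 once signs were reversed for the 47 arrays with the high pig in Cy3). A sign is therefore shared by all arrays, but it is not known whether positive values stand for more RNA in high or in low pigs. No value was missing, and the array medians lay between -0.01 and 0.01. The SD of all ratios on an array ranged between 0.133 and 0.660 with a median of 0.222. It was above 0.4 on 4 arrays, all of LMA litters (female pairs of litters 32, 54 and 12, and the male pair of litter 56), and several values below are also given without them. Levels in single pigs were not analysed here, the number of arrays limits the precision, and in whole muscle fewer cells of a type cannot be told apart from less RNA per cell. Only ratios were used, so it is not known which spots, named ones included, lay near background.

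RPN2 had by far the widest ratios of the 5 genes. In the 24 male pairs of LMA litters its ratio had a lowest value of -2.02, a median of 0.15 and a highest value of 0.59, with 16 pairs above 0. In the 24 female pairs of LMA litters the lowest was -0.43, the median 0.11 and the highest 2.21, with 15 pairs above 0. The far values thus lay on opposite sides of 0 in the sexes, while the medians were alike. In the male pairs of BF litters RPN2 ranged from -1.69 to 0.74 with a median of -0.12 and 8 of 20 pairs above 0, and in the female pairs from -0.80 to 0.80 with a median of 0.11 and 12 of 20 above 0. The range that all 4 groups shared ran between -0.43 and 0.59, and every group also had values outside it. Their means were 0.03 ± 0.51 in male and 0.27 ± 0.67 in female pairs of LMA litters (SD, n = 24 each), and in BF litters -0.16 ± 0.50 in male and 0.05 ± 0.44 in female pairs (SD, n = 20 each).

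**Figure D1:**
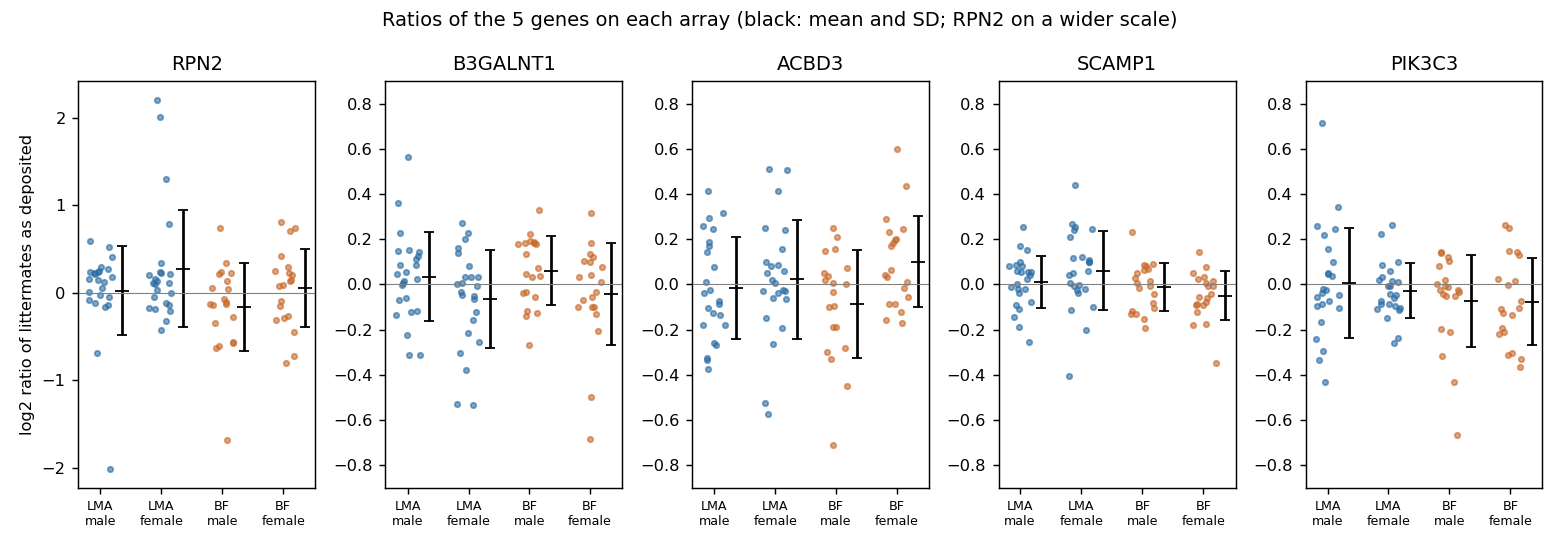
Log2 ratio of littermates as deposited (vertical axis) for each of the 5 genes in male and female pairs of LMA and BF litters. Each point is 1 array and the black bar gives the mean and SD; RPN2 has a wider axis, with points at 2.21 and -2.02, while the farthest ratio of the other 4 genes is 0.71 in size.

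On 5 arrays the ratio of RPN2 was beyond 2-fold, and 3 of these were female pairs of LMA litters. The female pair of litter 42 had 2.21, the male pair of litter 56 had -2.02, the female pair of litter 32 had 2.01, the BF male pair of litter 134 had -1.69 and the female pair of litter 5 had 1.30. None of the other 4 genes was beyond 2-fold on any array. Litters 56 and 32 were among the 4 arrays of wide ratios, with an SD of 0.660 and 0.551 over all spots. The arrays of litters 42, 134 and 5 had an SD of 0.369, 0.253 and 0.335. MYH7, the slow myosin heavy chain, and LMCD1, a LIM domain protein listed here with the slow fiber markers, had the sign of RPN2 on all 5 arrays. Both were among the 3 named spots of highest correlation with RPN2 over these same arrays, so the like signs are no separate result. Their r with RPN2 was above that of 94.8% (MYH7) and 96.5% (LMCD1) of all spots. On the array of litter 42 MYH7 stood at 1.04 and LMCD1 at 3.23, and on that of litter 56 MYH7 stood at -0.83 and LMCD1 at -2.53. The part of fiber type in the RPN2 ratios was not tested.

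The spread of RPN2 left after dye and trait terms had been removed was 0.55 (SD of residuals over 88 arrays), above that of 97.1% of all spots. Measured by the median absolute deviation, which the far arrays hardly touch, it was 0.32 and above 93.4% of spots, and without the 4 arrays of wide ratios the SD was 0.46, above 96.9% of spots. ACBD3 followed with an SD of 0.23 (above 74.1% of spots). PIK3C3 had 0.18 and B3GALNT1 0.15, and SCAMP1 with 0.13 lay just under the median spot, which had 0.14.

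The ratios of B3GALNT1 ran between -0.68, on the BF female pair of litter 100, and 0.57, on the LMA male pair of litter 64. Its medians were small in all 4 groups, at 0.033 in male and -0.021 in female pairs of LMA litters, and in BF litters at 0.059 in male and -0.013 in female pairs. In both traits the male pairs were more often above 0 than the female pairs. The counts were 15 of 24 male and 10 of 24 female pairs of LMA litters, and 13 of 20 male and 10 of 20 female pairs of BF litters. In litter 64 the male pair had 0.57 and the female pair -0.53, the highest and nearly the lowest of its ratios in LMA litters. These ratios keep the dye effect, and the high pig carried Cy3 in the male and Cy5 in the female pair of litter 64. With dye and trait terms removed the residuals were -0.44 in the male and -0.38 in the female pair. Residuals are in the order of the dyes, which reverses the sign of the male pair.

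ACBD3 ran between -0.71, on the BF male pair of litter 90, and 0.60, on the BF female pair of litter 122. Its mean was -0.086 ± 0.24 in male and 0.10 ± 0.20 in female pairs of BF litters (SD, n = 20 each), with medians of -0.015 and 0.053. The groups overlapped, with 10 of 20 male and 13 of 20 female pairs above 0. In LMA litters its median was -0.056 in male and 0.013 in female pairs. SCAMP1 had the narrowest range, between -0.41 (LMA female pair of litter 23) and 0.44 (LMA female pair of litter 12, an array of wide ratios). Its median was 0.033 in male and 0.053 in female pairs of LMA litters, with 14 and 15 of 24 pairs above 0. In BF litters the median was -0.00099 in male and -0.048 in female pairs, with 10 and 7 of 20 pairs above 0. PIK3C3 was the 1 gene whose median lay below 0 in every group. The medians were -0.032 in male and -0.044 in female pairs of LMA litters, and in BF litters they were -0.025 in male and -0.11 in female pairs. Its highest value, 0.71, came from the LMA male pair of litter 56 and its lowest, -0.67, from the BF male pair of litter 100.

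Each array sets a high against a low pig, so the first comparison is between these. A linear model fitted to all spots with limma, with a dye term and a term for each trait, called 0 of the 20736 spots for LMA and 0 for BF at a Benjamini-Hochberg adjusted p under 0.05, so the share called was 0% for both traits. At an unadjusted p under 0.05 there were 871 spots for LMA and 772 for BF, and the alternatives of the fit (litter as a block, other scalings, array weights, a filter and others) also called 0. The size of their coefficients, the mean log2 ratio after the dye term, had a median of 0.015 for LMA and 0.029 for BF, against 0.012 and 0.013 over all spots. The coefficients below describe the values by which RPN2, SCAMP1 and PIK3C3 had been noticed.

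For LMA the coefficient of RPN2 was 0.15 (SE 0.08), larger in size than that of 99.6% of all spots, and 31 of 48 pairs were above 0. This rank is by raw size with no regard to the SE, and the spread of RPN2 was itself above that of 97.1% of spots. The coefficient rested in part on single arrays, since it was 0.11 without the female pair of litter 42 and 0.20 without the male pair of litter 56. SCAMP1 had 0.035 (SE 0.019), larger than 84.6% of spots, with 29 of 48 pairs above 0. The LMA coefficients of B3GALNT1, PIK3C3 and ACBD3 were -0.015 (SE 0.022), -0.011 (SE 0.026) and 0.0031 (SE 0.033), each smaller than its SE. Without the 4 arrays of wide ratios the LMA coefficient was 0.17 for RPN2, 0.027 for SCAMP1 and -0.025 for B3GALNT1. It was -0.024 for PIK3C3 and 0.0011 for ACBD3, so the small coefficients of these and of B3GALNT1 moved by over 1.5 times and kept their sign in this fit. The LMA coefficient of ACBD3 turned to -0.0072 without the male pair of litter 32, and was also negative with array weights and after quantile normalization. For BF the coefficient of PIK3C3 was -0.064 (SE 0.028), larger in size than that of 93.4% of spots, with 14 of 40 pairs above 0. It kept its sign without any single array, between -0.071 and -0.051. RPN2 had -0.048 (SE 0.087) and SCAMP1 -0.029 (SE 0.021) for BF, so both stood on the other side of 0 than for LMA. The BF value of RPN2 was -0.0094 without the male pair of litter 134. ACBD3 had 0.017 (SE 0.037) and B3GALNT1 -0.012 (SE 0.024). The value of B3GALNT1 turned to 0.0029 without the female pair of litter 100, and that of ACBD3 was 0.0011 without the female pair of litter 122 and 0.033 without the male pair of litter 90.

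**Figure D2:**
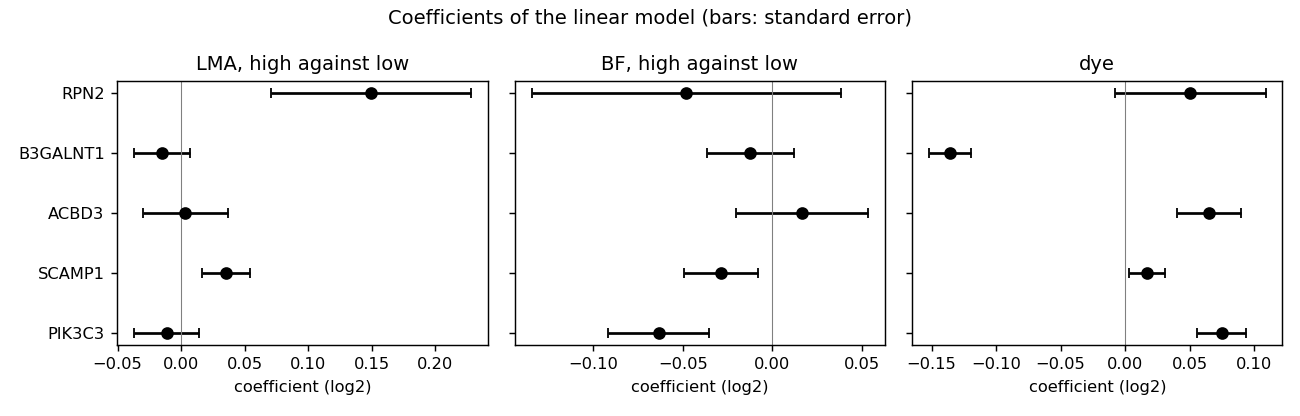
Coefficients of the 5 genes for LMA, BF and dye with their standard errors (log2, horizontal axes of different width; sign relative to an unknown numerator). RPN2 stands out to the right for LMA at 0.15 and B3GALNT1 to the left for dye at -0.14.

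Whether the high against low difference was the same in both sexes was tested as the coefficient of male minus that of female pairs. The share of spots called was 0% for LMA and 0% for BF (1508 and 887 spots at an unadjusted p under 0.05), and none of the 5 genes passed by limma with Benjamini-Hochberg adjustment. In BF litters the difference was -0.18 (SE 0.071) for ACBD3, with an unadjusted p of 0.0134 and an adjusted p of 0.999. For B3GALNT1 it was 0.096 (SE 0.043) in LMA and 0.091 (SE 0.047) in BF litters, with adjusted p of 0.682 and 0.999, so male pairs lay above female pairs in both traits by similar amounts that did not hold up after adjustment. For RPN2 it was -0.25 (SE 0.16) in LMA and -0.21 (SE 0.17) in BF litters, and the LMA value shrank to -0.11 without the 4 arrays of wide ratios and to -0.047 with array weights. For SCAMP1 and PIK3C3 every difference was 0.050 or less in size.

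A dye effect, a ratio that follows the label and not the pig, was common on these arrays. With signs set in dye order (reversed where the high pig carried Cy3), 61.1% of all spots had a dye coefficient that passed, positive for 30.7% and negative for 30.4%. Of the 5 genes 3 passed, which is close to that share. B3GALNT1 had the largest dye coefficient of the 5, at -0.14 (SE 0.016, limma adjusted p 1.07e-11), with 15 of 88 arrays above 0. PIK3C3 had 0.075 (SE 0.019, limma adjusted p 4.26e-04) with 56 of 88 arrays above 0, and ACBD3 had 0.065 (SE 0.025, limma adjusted p 0.0185) with 51 above 0. RPN2 at 0.050 and SCAMP1 at 0.017 did not pass (limma adjusted p 0.465 and 0.304). In the order of the dyes, too, the sign is relative to an unknown numerator.

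The 5 genes were next compared with one another, by the correlation over the 88 arrays of the residuals left after dye and trait terms had been removed. These residuals were not used to choose the genes, and they ask whether 2 genes differ together between littermates. P-values came from two-sided permutation tests with 100000 permutations of the arrays, adjusted by Benjamini-Hochberg over the 10 pairs of genes. Of the 10 pairs, 4 passed for Pearson's r and 3 for Spearman's rho. As background, 14.5% of all pairs of spots had an r at least as large in size as the weakest of these 4, and with RPN2, which is in 3 of the 4, 30% of all spots had. The count is therefore a description of these genes on arrays where many spots are correlated.

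RPN2 and PIK3C3, the oligosaccharyltransferase subunit and the endosomal lipid kinase, went in opposite directions. Pearson's r was -0.492 (permutation p 1e-05, the smallest that the permutations can give, and 1e-04 after adjustment) and Spearman's rho -0.423 (adjusted p 4.00e-04), and the residuals had opposite signs on 52 of 88 arrays. By trait, r was -0.402 in LMA and -0.639 in BF litters. The rho was -0.278 in LMA litters, where it did not pass (adjusted permutation p 0.143), and -0.574 in BF litters (adjusted permutation p 0.0019). By sex r was -0.623 in male pairs and -0.358 in the 44 female pairs, where the adjusted permutation p was 0.0775. Without the 2 arrays farthest out in RPN2 r was -0.378, and without the 4 arrays of wide ratios it was -0.500. On the 5 arrays with RPN2 beyond 2-fold PIK3C3 had the opposite sign on 4. Of all spots, 0.391% had a lower correlation with PIK3C3 than RPN2 had, and 1.91% had a lower correlation with RPN2 than PIK3C3 had.

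RPN2 and ACBD3 differed in the same direction, with an r of 0.422 (adjusted permutation p 4.00e-04) and rho of 0.332 (adjusted permutation p 0.00837) and the same sign on 51 of 88 arrays. By trait r was 0.427 in LMA and 0.420 in BF litters, by sex 0.455 in male and 0.399 in female pairs, and without the 2 arrays farthest out it was 0.350. In female pairs alone the adjusted permutation p of r was 0.0775. By trait rho was 0.292 in LMA and 0.377 in BF litters and passed in neither (adjusted permutation p 0.143 and 0.0866). Of all spots, 96.6% had a lower correlation with ACBD3 than RPN2 had.

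The other passing pairs were weaker and held in fewer settings. RPN2 and SCAMP1 had r of 0.289 (adjusted permutation p 0.0197) and rho of 0.191 (adjusted permutation p 0.175), and r was 0.0303 in BF litters and 0.198 without the 2 arrays farthest out, where it no longer passed. B3GALNT1 and SCAMP1 had r of 0.291 (adjusted permutation p 0.0197) and rho of 0.317 (adjusted permutation p 0.00837), with an r of 0.407 in LMA but 0.0792 in BF litters. The rho was 0.444 in LMA litters, where it passed (adjusted permutation p 0.0177), and 0.142 in BF litters, where it did not (adjusted permutation p 0.625). The difference between traits was not tested. B3GALNT1 and RPN2, the Golgi enzyme and the oligosaccharyltransferase subunit, had an r of 0.00552. The correlations of the remaining 5 pairs ran between -0.178 (ACBD3 and PIK3C3) and -0.0648 (B3GALNT1 and PIK3C3). Neither that r nor these correlations passed.

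**Figure D3:**
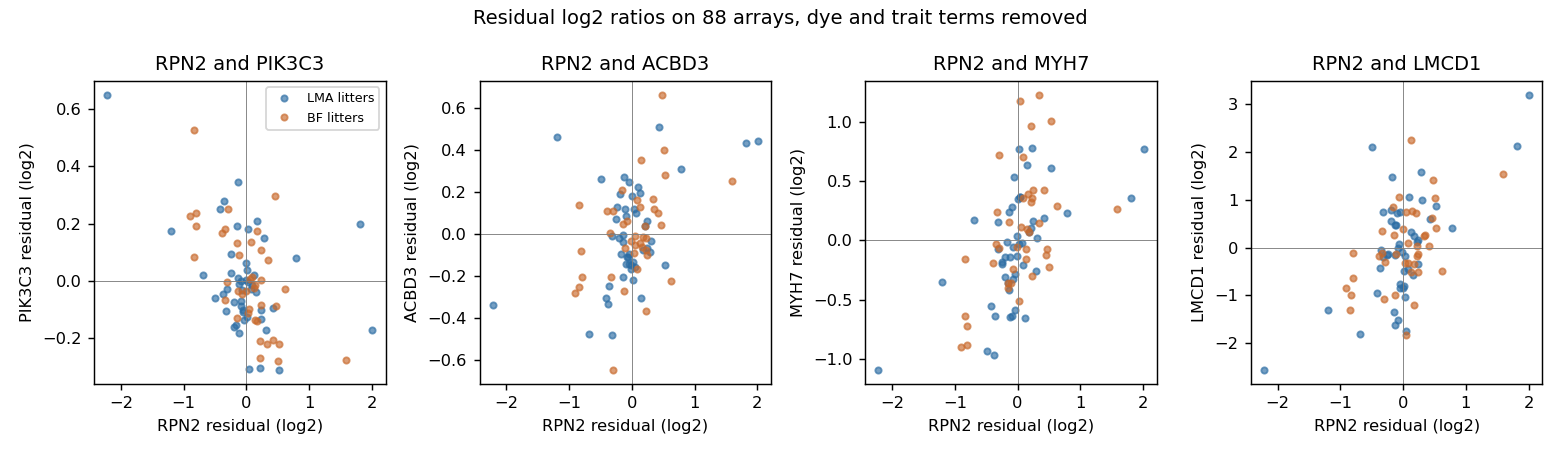
Residual log2 ratios of RPN2 (horizontal axes) on 88 arrays against those of PIK3C3, ACBD3, MYH7 and LMCD1 (vertical axes of different width), with the dye and trait terms removed and signs in the order of the dyes. Each point is 1 array, blue for LMA and orange for BF litters; PIK3C3 slopes down (r = -0.492) and the other genes slope up (r = 0.422, 0.537 and 0.587), with a few arrays far out in RPN2.

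How common such correlations were differed between the genes. Over all pairs of spots, 1.9% had an r at least as large in size as that of RPN2 and PIK3C3, and 4.08% as that of RPN2 and ACBD3. With RPN2, 1368 of 20735 other spots had an r above 0.5 and 361 an r below -0.5, so RPN2 had more spots beyond 0.5 in size (1729) than 95.7% of all spots had, against 86 for the median spot. B3GALNT1 had 398 spots above 0.5 and 11 below -0.5, ACBD3 had 319 and 42, PIK3C3 had 143 and 66, and SCAMP1 had 6 and 5. The middle 95% of all correlations ran between -0.467 and 0.618 for RPN2 and between -0.304 and 0.330 for SCAMP1. An r of 0.422 with ACBD3 thus lay inside the common range for RPN2, at the 90.1st percentile, while the r of -0.492 with PIK3C3 lay below it.

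**Figure D4:**
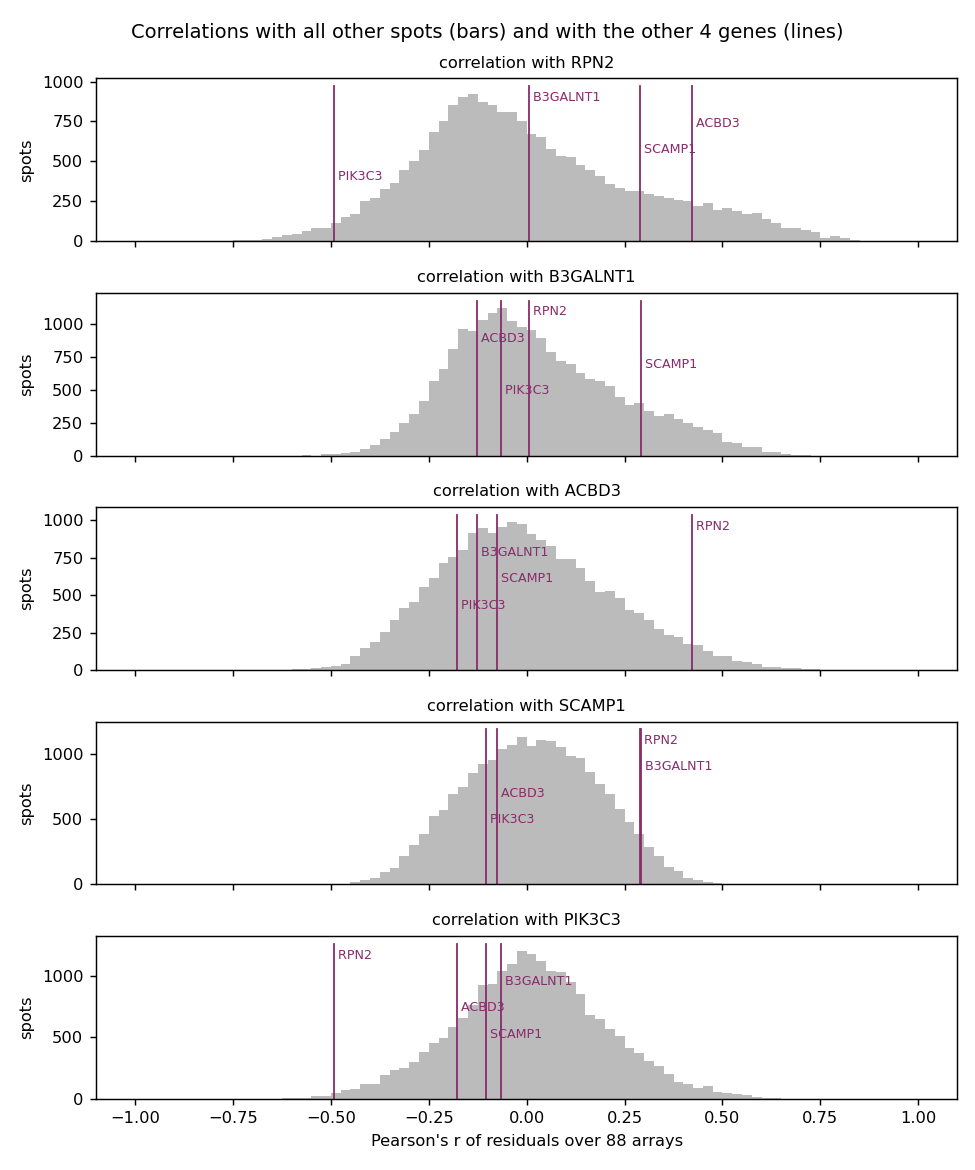
Histograms of Pearson's r of residuals over 88 arrays between each of the 5 genes and all 20735 other spots (horizontal axis r, vertical axis number of spots). Lines mark the other 4 genes; the line of PIK3C3 in the RPN2 panel and that of RPN2 in the PIK3C3 panel lie in the left tails at -0.492, and the distribution of RPN2 is the widest.

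Of all 885 correlations of a gene with a named spot, 20% passed after Benjamini-Hochberg adjustment over the 885. As background, 30% of all other spots had an r of 0.289 or more in size with RPN2, and 17% with B3GALNT1. The share was 18.5% with ACBD3, 8.22% with SCAMP1 and 14% with PIK3C3. That size is not the bar of the adjusted p, so the counts of named spots are a description. With RPN2, 43 of the 177 other named spots passed, of which 20 had a positive r and 23 a negative one. The highest were LMCD1 at 0.587, INHA, the inhibin alpha subunit, at 0.557 and MYH7 at 0.537 (adjusted permutation p 3.54e-04 each), or 0.510, 0.497 and 0.511 without the 4 arrays of wide ratios. MYH7 varied less between settings than LMCD1, with a rho of 0.570, r between 0.505 and 0.574 within each trait and sex, and the sign of RPN2 on 67 of 88 arrays. LMCD1 had a rho of 0.393 and an r of 0.316 after quantile normalization. The lowest were SPRP at -0.521, which was -0.308 without the 4 arrays of wide ratios, and PIK3C3. The lowest named correlations of PIK3C3 were with RPN2 and with MYH7 (r = -0.426, rho = -0.347). Its highest were with the prohormone convertase PCSK2 at 0.337, the somatostatin receptor SSTR5 at 0.331 and the immune adaptor TYROBP at 0.300. These stood at 0.0935, 0.0488 and 0.138 in female pairs, and 11 of 177 named spots passed for PIK3C3.

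ACBD3 had its highest named correlations with ITGB1, the integrin beta 1 subunit that anchors fibers to their matrix, at 0.672 (rho 0.629), with LMCD1 at 0.517 and with the myogenic factor MYOD1 at 0.482. All of these were between 0.451 and 0.777 within each trait and sex. The lowest were the estrogen sulfotransferase SULT1E1 at -0.456 and the CD30 ligand TNFSF8 at -0.437, and 38 named spots passed, 7 positive and 31 negative. ACBD3 and RPN2 shared LMCD1 among their highest named spots.

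The highest named correlations of B3GALNT1 were with the intestinal peptide transporter SLC15A1 at 0.667 (rho 0.680), the bile acid enzyme CYP8B1 at 0.641 and the PDZ domain protein PDZD11 at 0.590. How far these spots stood above background cannot be read from ratios. The r with PDZD11 was 0.794 in LMA and 0.291 in BF litters. Of 177 named spots 63 passed, 60 of them with a positive r, and the lowest were OPALIN at -0.339 and CRSP-2 at -0.300. The named spots of high correlation with B3GALNT1 tended to have a negative dye coefficient, as B3GALNT1 itself had. Over 177 named spots the dye coefficient and the correlation with B3GALNT1 had an r of -0.634, and over all other spots -0.403, given as descriptions over spots of the same 88 arrays. For ACBD3, whose dye coefficient was positive, these values were 0.484 and 0.241. RPN2, at 0.251 and 0.133, and PIK3C3, at 0.108 and 0.0756, had smaller ones. SCAMP1 went the other way, with values of -0.399 and -0.247 beside a small positive dye coefficient that did not pass. The part of dye in the correlations was not tested.

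The highest named correlations of SCAMP1 were with protamine PRM1 at 0.432, MYH7 at 0.431 and the complement regulator CD46 at 0.373. PRM1 and CD46 stood at 0.101 and 0.111 in BF litters, and MYH7 at 0.338. Of 177 named spots 22 passed, all with a positive r, while the lowest, MBL2 at -0.287 and PROC at -0.286, did not pass (adjusted permutation p 0.0563 and 0.0600). MYH7 thus was among the highest named spots of both RPN2 and SCAMP1, and among the lowest of PIK3C3.

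The closest spots on the whole array had no gene symbol for any of the 5 genes. PIK3C3 had 1 spot far closer than all others, spot 14845, with an r of 0.834 and a rho of 0.762, while the next closest stood at 0.681. Whether this spot is another probe of PIK3C3, which would make it a repeat measurement, is not known here. The r with this spot was 0.904 in male and 0.658 in female pairs. The highest r was 0.859 for RPN2, 0.754 for ACBD3, 0.708 for B3GALNT1 and 0.537 for SCAMP1. RPN2 differed from PIK3C3 in that its closest spots lay near each other, at 0.859, 0.855 and 0.850.

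Partner genes of the same routes could be read only in part, because few had a named spot. Of 43 genes listed for N-glycosylation and protein folding in the endoplasmic reticulum, 0 had one, as did 0 of 42 Golgi glycosyltransferases and 0 of 39 phosphoinositide kinase and autophagy genes. Of 42 genes of Golgi structure 1 had a spot (TSPO, a mitochondrial outer membrane protein that binds ACBD3), and of 56 genes of endosomes and carriers 3 had (LAMP1, CAV1 and ARR3). None of these passed for LMA or BF, and for dye 1 passed (LAMP1, -0.11), where 61.1% of all spots passed. TSPO had an r of 0.00645 with ACBD3, while CAV1, the coat protein of caveolae, had 0.409 with RPN2 and 0.240 with ACBD3. LAMP1, the lysosomal membrane protein, had -0.299 with RPN2 and 0.055 with PIK3C3.

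The annotation also held 4 enzymes of glycan synthesis that were added to the lists after it had been read. None passed for LMA or BF, and 3 passed for dye with a negative coefficient. Of all spots 61.1% passed for dye, 30.4% with a negative coefficient, so this count is a description. The sialyltransferase ST3GAL4 had an r of 0.525 with RPN2, -0.346 with PIK3C3 and 0.181 with B3GALNT1. The sulfotransferase GAL3ST2, with a dye coefficient of -0.48, had 0.527 with B3GALNT1 and -0.192 with RPN2. B3GNT5, which like B3GALNT1 extends a glycolipid, had a dye coefficient of -0.14 and an r of 0.391 with B3GALNT1, and MGAT4C had 0.209 with it.

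Markers of other cells were represented by few spots and 0 passed for LMA or BF. Of the adipocyte list 3 of 9 genes had a spot, and with RPN2 the lipid droplet protein PLIN1 had an r of 0.374, ADIG 0.278 and the hormone RETN -0.159. Of the list for macrophages and lymphocytes 3 of 9 had a spot, at -0.360 for TYROBP, 0.286 for PSMB8 and 0.074 for CD4. Of the blood list HBE1 alone was present (-0.082 with RPN2 and 0.446 with B3GALNT1), and of the myogenic list MYOD1 alone (0.463 with RPN2). The slow fiber list had MYH7 and LMCD1 of 8 genes, and the fast fiber list had 0 of 8. The labelled muscle could therefore be checked against few defining markers. Over these 10 markers the r with RPN2 ran between -0.360 and 0.587, and the part of cell and fiber makeup in its values was not tested.

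The last comparison asked whether the male and the female pair of a litter, which share parents, had like ratios. In the order of high to low pig, the residuals of the male and female pairs had correlations over 44 litters between -0.350 for B3GALNT1 and 0.083 for RPN2, and none passed after Benjamini-Hochberg adjustment over the 5 genes (adjusted permutation p 0.101 for B3GALNT1 and 0.631 for each of the others). B3GALNT1 thus lay at the 4.25th percentile of all spots, whose median was -0.062, and its rho was -0.309. In the order of the dyes the sign of 1 of the 2 pairs is turned in every litter whose high pigs carried different dyes, so the values below are largely the same relation with its sign reversed. There the same gene had an r of 0.424 (adjusted permutation p 0.0258) and a rho of 0.385 (adjusted permutation p 0.0542), against a median of 0.136 over all spots, and the residuals had the same sign in 31 of 44 litters. In the 35 litters of different dyes r was 0.484 in dye order, while in the other 9 litters it was 0.045. It was 0.579 in LMA and 0.183 in BF litters. For the other 4 genes r in dye order ran between 0.083 (RPN2) and 0.232 (ACBD3) and did not pass.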

How the data were processed

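RNA of loin muscle was hybridized in pairs of littermates to 2-color 70-mer oligonucleotide arrays. The authors took GenePix median intensities without background correction and normalized them within print tips by lowess and by an overall scale step. The deposited log2 ratios were used as they stand, and their SD still differed between arrays. Litter, sex, trait and dye came from the labels, whose amount of RNA for reverse transcription is not that of the methods, with no effect on any value. Signs were reversed where the high pig carried Cy3, and limma 3.58.1 (lmFit and eBayes, in R 4.3.3) fitted dye, LMA and BF terms to all spots. Correlations were computed in Python 3.11.15 with scipy 1.17.1 on residuals. Permutations took arrays as exchangeable although a male and a female array share each litter (consensus correlation 0.126), so whole litters were also permuted. Control spots were not known and were kept. The members, lists and tests were chosen with earlier results of these data known. Besides the 5 genes, named genes are, for each, the 3 named spots of highest and the 2 of lowest correlation, and list genes with a spot. Spot 14845, the glycan enzymes and the share of all pairs of spots were chosen later. The programs were tested on simulated data. Litter numbers pair male and female arrays, since the labels give them as shared litters.

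Alternatives were litter as a replicate block, array weights, other scalings (by the median absolute deviation, MAD, or by quantiles), a filter on spots of low spread, no dye term and 1 trait only. A fit without the 4 arrays of SD above 0.4 was added after the data were seen.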

Additional observations from a re-analysis of the deposited data

How the results depend on the processing

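The counts of spots called stayed at 0 for LMA, BF and both comparisons of male with female pairs under every alternative run. With litter as a random replicate block they were 0 for LMA and 0 for BF, with 12225 for dye (1155 spots in LMA and 757 in BF had an unadjusted p under 0.05), and with litter as a fixed block 0 for both sex comparisons (1260 and 739); no call of the 5 genes changed under either block. With whole litters permuted, a replicate block for the correlations, the same number of pairs of genes passed, 4 of 10. That number fell to 2 in male and 0 in female pairs, which hold 44 arrays each, with 3 pairs of genes at an unadjusted permutation p under 0.05 for r in female pairs and 2 for rho. Within traits 4 of 10 pairs of genes passed for r in LMA and 3 in BF litters, but for rho 1 passed in each. Values near 0 turned sign: RPN2 with B3GALNT1 was -0.0322 after MAD scaling, -0.0105 after quantile normalization, -0.0668 with ratios as deposited, -0.0104 in LMA litters, -0.0612 in male pairs and -0.0108 without the arrays of wide ratios. ACBD3 with SCAMP1 was 0.0852 in LMA and -0.386 in BF litters (adjusted permutation p 0.0478). Its rho in BF litters was -0.217 and did not pass (adjusted permutation p 0.414). The male minus female value of PIK3C3 in LMA litters was -0.0048 with array weights. The LMA coefficient of ACBD3 was -0.0011 with array weights and -0.0030 after quantile normalization, and the BF coefficient of B3GALNT1 was 0.0082 with no dye term. In the order of the dyes, which by construction turns the sign of 1 pair in 35 of 44 litters, correlations within litters were 0.424 for B3GALNT1, 0.232 for ACBD3, 0.103 for SCAMP1 and 0.131 for PIK3C3. With ratios as deposited, which keep the dye effect, B3GALNT1 with ACBD3 was -0.272 and with PIK3C3 -0.309 and both passed, while B3GALNT1 with SCAMP1 at 0.112 did not. RPN2 with SCAMP1 did not pass after MAD scaling (0.193) or quantile normalization (0.149), or without the arrays of wide ratios (0.241). The SD of RPN2 was 0.43 after MAD scaling and 0.39 after quantile normalization. Apart from that turned sign, the causes were not tested.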
